A study of Homo sapiens with 2 samples.

Results

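The genes described here encode the fibroblast growth factor (FGF) and epidermal growth factor (EGF) receptors, the FGF ligands, and the Sprouty and Spred inhibitors of growth factor signalling. They were chosen by symbol from the deposited gene tables: every numbered FGF gene, FGFR1 to FGFR4, FGFRL1, EGFR, ERBB2, ERBB3, ERBB4, and the numbered SPRY and SPRED genes. The rule used no measured value and found 38 genes among the 55797 listed. SPRY3 was listed at both of its pseudoautosomal copies with identical values and was counted once.

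RNA was compared between live cells and cells processed by MARIS, a method that isolates RNA from cells after fixation, intracellular antibody staining and sorting. Both samples were made from the established line H1 of human embryonic stem cells, differentiated in steps to Stage 6, a mixed culture that contains insulin-expressing cells. Live cells were extracted directly with an RNeasy protocol. Processed cells were fixed with 4% paraformaldehyde, permeabilized, stained with antibodies and passed through a mock sort in which all cells were collected, and their RNA was then extracted with a modified kit for fixed material (RecoverAll). Each condition had 1 library, so no difference below has a replicate check, no test between conditions was made, and fixation, staining, the mock sort and the extraction kit cannot be told apart. The values are FPKM, the fragments of a gene scaled to its length and to the size of the library, each with a lower and an upper bound in the deposited files. These bounds describe the precision of a value within its own library, at a level the sources used here do not state, and say nothing of the spread between cultures.

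FGFs are secreted proteins that bind receptor tyrosine kinases with heparan sulphate as a cofactor, except for a homologous group that stays inside the cell and acts on sodium channels. Ligand binding pairs the receptors, which then recruit adaptors such as FRS2, GRB2 and SOS1 and switch on the RAS, RAF, MEK and ERK relay. The ERBB receptors feed the same relay from EGF-like ligands, and Sprouty and Spred proteins dampen it. In the pancreas, FGF10 from the mesenchyme and FGFR2 in the epithelium are known for expanding the early progenitors.

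At an FPKM of 1, a gene was covered by 99.7 fragments per kilobase in live and 93.1 in processed cells. These were read from the smallest steps between low values, after 170 nt was taken off each transcript length. In live cells 16004 genes reached 1 FPKM, and in processed cells 15957. Markers of several cell types were present in both libraries. The 7 endocrine markers summed to 2364 FPKM in live and 2355 in processed cells, although CHGA, which held most of that sum, carried a failed status in the processed table. INS was at 98.3 and 121 FPKM and GCG at 135 and 131 FPKM, so RNA of these islet hormones was present in both libraries. The 4 duct and epithelial markers summed to 969 and 978 FPKM, the 4 hepatic markers to 741 and 902, the 5 mesenchymal markers to 83.7 and 83, the 4 pluripotent markers to 21.7 and 19.9, and the 4 acinar markers to 20.4 and 25.7. Sums that were close hid single markers that were not. NANOG was 5.78-fold higher in processed cells while TDGF1 was 3.79-fold and ZFP42 2.72-fold lower, DCN was 2.97-fold higher while LUM was 1.52-fold lower, and CTRB1 was 6-fold higher. CDH5 and PTPRC, the measured endothelial and blood markers, summed to 0.397 and 0.312 FPKM. In such a mixture fewer cells of a type and less RNA per cell cannot be told apart, and the part of cell composition in the differences below was not tested.

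Of the 38 genes, 27 were at 1 FPKM or more in at least one library, 24 of them in live and 25 in processed cells. In the plot of levels by gene, these 27 genes span the FGF receptors near the top of the expressed range to secreted FGFs near the lower limit. All 38 were annotated as protein-coding and had a valid status in both tables.

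**Figure D1:**
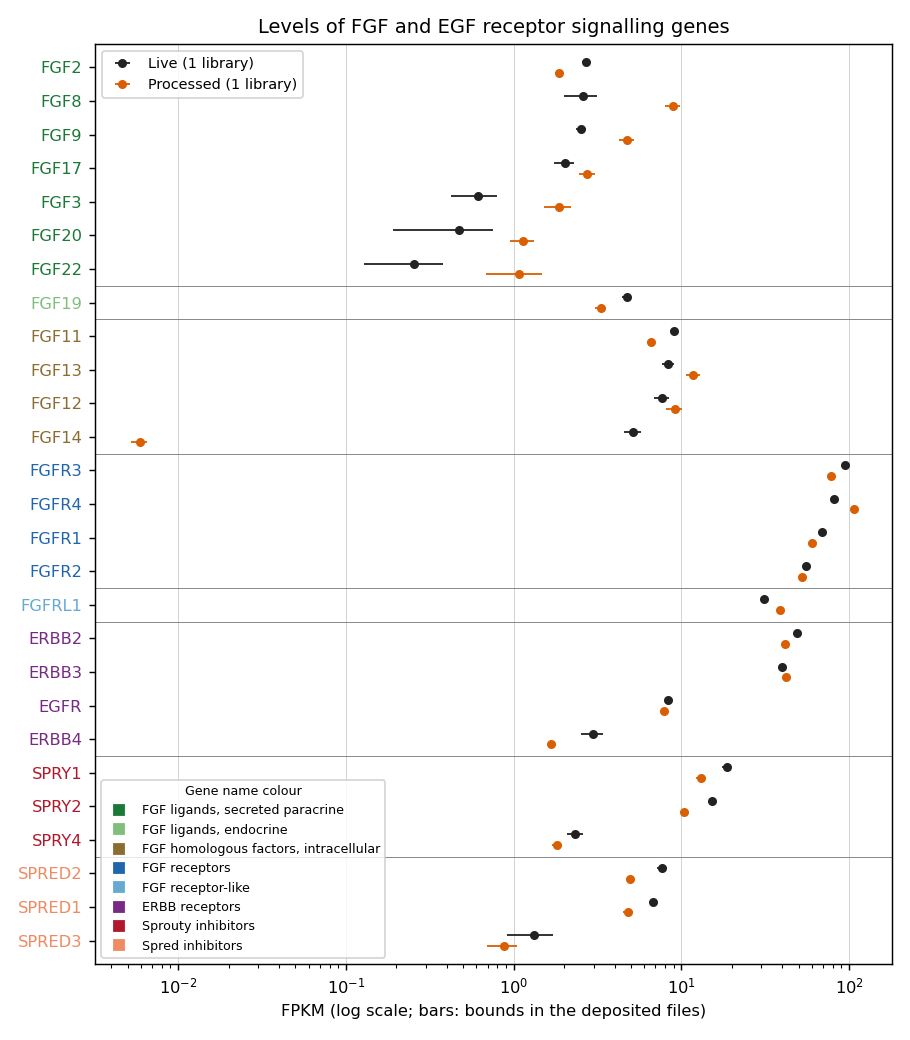
FPKM (log axis) of the 27 genes that reached 1 FPKM in at least one library, 1 row per gene, grouped by role. Black points are live cells, orange points are processed cells, and bars are the bounds in the deposited files. FGFR4 and FGF8 sit higher in processed cells, the Sprouty and Spred genes sit lower, and FGF14 lies at 0.00588 FPKM in processed cells.

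On the scale of log2((processed FPKM + 1)/(live FPKM + 1)), FGF8 was the 1 gene of the 27 more than 2-fold higher in processed cells, against 6.57% of all 17326 genes under the same filter. FGF14 was the 1 gene more than 2-fold lower, against 6.19%. Together they make 7.41% of the 27 genes, where 12.8% of all genes passed 2-fold in either direction. All genes include noncoding ones. Of the 13573 protein-coding genes under the same filter, 427 were more than 2-fold higher and 479 lower, smaller shares than over all genes. The 27 genes are therefore not read as passing 2-fold less often than others. FGF8 and FGF14 are among the 15 genes with a mean of 1 to 10 FPKM, a range in which 16.9% of all genes passed 2-fold. Of the 10 genes at a mean of 10 FPKM or more none did, against 3.36% of all genes. The added 1 FPKM understates the differences of low genes. By whether the bounds of the libraries were separate, 9 genes were higher in processed cells and 14 lower, against 28.1% and 43.7% of all genes. The remaining 4, FGF12, SPRED3, EGFR and ERBB3, had overlapping bounds. Of the 13573 protein-coding genes, 3468 were higher and 6375 lower with separate bounds. Separate bounds were common across all genes (71.8%), and by themselves they single out no gene. The median log2 ratio was -0.19 over the 27 genes, -0.09 over all genes and -0.11 over protein-coding genes. FGF3, FGF20 and FGF22 entered through processed cells alone, and SPRED3 and FGF14 through live cells alone, and these 5 had to differ to some extent. Over the 22 genes at 1 FPKM or more in both libraries the median was -0.21, beside -0.09 over the 14635 genes of that kind.

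**Figure D2:**
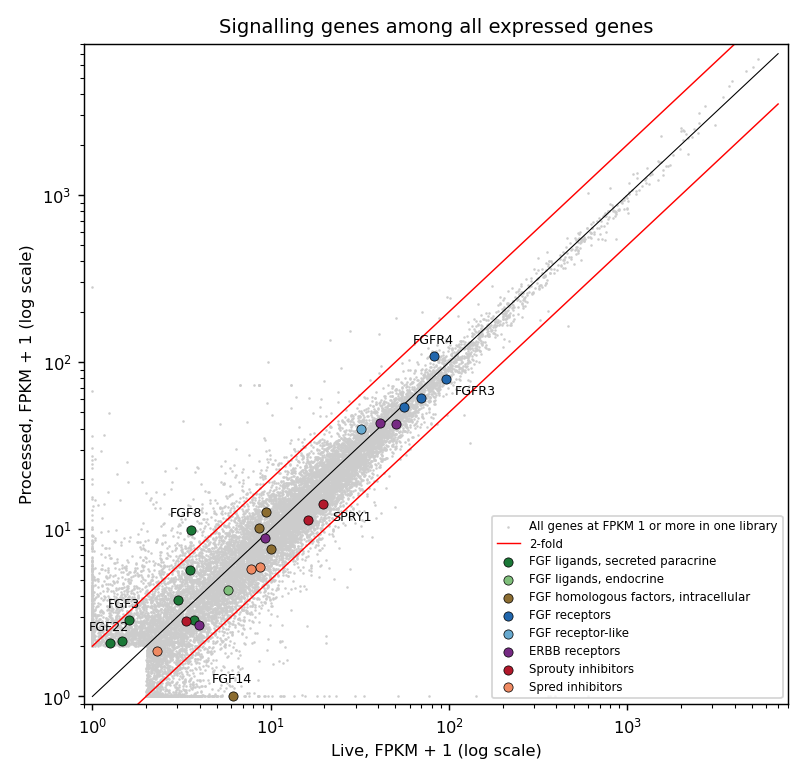
FPKM + 1 in processed against live cells (both log axes) for all 17326 genes at FPKM 1 or more in one library (grey) and the 27 signalling genes (coloured by role). The black line marks equality and the red lines 2-fold. FGF8 lies above the upper red line and FGF14 below the lower one, and the other 25 lie between them.

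Among the secreted FGFs, FGF8 differed most on the log2 scale with 1 FPKM added. FGF8, a ligand known for patterning the embryo from gastrulation on, was at 2.58 FPKM in live cells (bounds 2.01 to 3.14) and 8.94 FPKM in the processed library (8.01 to 9.87). Processed cells were thus 3.47-fold higher, with a range of 2.55 to 4.91 between the extremes of the bounds. The log2 ratio was 1.47, outside the 5th to 95th percentile range of genes expressed in both libraries, -0.80 to 0.78. FGF17, a close relative of FGF8 with the same receptor preference, was at 2.02 FPKM in the live and 2.76 FPKM in the processed library, which is 1.36-fold higher with narrowly separate bounds. The level of FGF8 relative to FGF17 was therefore 1.28 in live and 3.24 in processed cells. FGF18, the third member of that subfamily, stayed under 1 FPKM, with 0.797 in live and 0.291 in processed cells.

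FGF9, which in the developing gut and lung signals from epithelium to mesenchyme, was at 2.53 FPKM in the live and 4.74 FPKM in the processed library, 1.87-fold higher. FGF20, of the same subfamily, was at 0.474 and 1.14 FPKM. FGF3 was at 0.612 FPKM in the live and 1.86 FPKM in the processed library, and FGF22, from a subfamily that binds the epithelial form of FGFR2, at 0.254 and 1.08 FPKM. These last 3 genes were 2.40-fold, 3.04-fold and 4.27-fold higher in processed cells as plain ratios, and their log2 ratios with 1 FPKM added were 0.54, 0.83 and 0.73. All were under 1 FPKM in live cells. With 0.1 FPKM added in place of 1, these 3 and FGF8 were past 2-fold (all genes, 9.9%).

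FGF2 and FGF19 were lower in processed cells. FGF2, the factor added to cultures to keep human pluripotent cells undifferentiated, was at 2.71 FPKM in the live and 1.87 FPKM in the processed library, a log2 ratio of -0.37. FGF19, an endocrine FGF that signals to FGFR4 with the co-receptor beta-klotho, was the most abundant secreted FGF in live cells at 4.75 FPKM and was at 3.31 FPKM in processed cells, 1.44-fold lower. FGF19 (chr11:69513000-69519410), FGF4 (chr11:69587797-69590171) and FGF3 (chr11:69624992-69633792) lie side by side in GRCh37, with log2 ratios of -0.42, -0.06 and 0.83.

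The summed level of the 18 secreted FGFs was 18.4 FPKM in the live and 26.4 FPKM in the processed library, and its make-up differed. FGF8 held 14% of the sum in live cells (10% to 18.7% from the bounds) and 33.9% in processed cells (28.8% to 39.4%). FGF19 held 25.8% in live and 12.5% in processed cells, and FGF2 14.7% and 7.07%. A share within one library does not depend on how the library was scaled. The leading secreted FGF was thus FGF19 in live cells and FGF8 in processed cells, and neither pair of share ranges overlapped.

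The remaining 10 secreted FGFs and SPRY3 stayed under 1 FPKM in both libraries. FGF6 and FGF21 were listed at 0 in both. The other 9 had higher values in live cells, with overlapping bounds for FGF4, FGF7 and FGF23. The share of all genes under 1 FPKM with that direction was not counted, so it is not read as particular to these 9. FGF10, the mesenchymal ligand of the pancreatic bud, was at 0.743 FPKM in the live and 0.00779 FPKM in the processed library. FGF16 was at 0.235 FPKM in live cells and listed at 0 in processed cells, and FGF4, a marker of pluripotent cells, at 0.458 and 0.4 FPKM. In processed cells 8 of these 11 genes were under 0.01 FPKM, and 2 of 11 were in live cells. Of all 5609 protein-coding genes under 1 FPKM in both libraries, 68.7% were under 0.01 FPKM in processed cells and 49.1% in live cells. FGF7, at 0.0678 and 0.00496 FPKM, has near-identical pseudogene copies, and how the counting treated reads shared with them is not stated.

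The intracellular FGF homologous factors, which modulate voltage-gated sodium channels in excitable cells, were all expressed in live cells at 5.15 to 9.05 FPKM. FGF11 was at 9.05 FPKM in the live and 6.58 FPKM in the processed library, and FGF13 at 8.38 and 11.7 FPKM. FGF12 was at 7.64 and 9.12 FPKM with overlapping bounds. FGF14 stood apart from the other 3, at 5.15 FPKM in live cells (bounds 4.54 to 5.76) and 0.00588 FPKM in the processed library, a log2 ratio of -2.61. Of the 9793 protein-coding genes at 5 FPKM or more in live cells, 3 were under 0.01 FPKM in processed cells (0.0306%), and FGF14 was 1 of these 3. Both limits of that count were chosen after the values of FGF14 were seen. Among protein-coding genes at 1 to 10 FPKM in live cells, the share was 1.44%.

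FGF14 is a long gene (chr13:102375035-103054124, GRCh37, minus strand) with 8 annotated transcripts of 566 to 13156 nt, and its FPKM depends on how the fragments were assigned to them. RP11-397O8.4, which overlaps one end of FGF14, was at 2.19 FPKM in the live and 1.36 FPKM in the processed library, and so was detected in both. FGF14-AS1, on the opposite strand inside the gene, was at 0.994 FPKM in live cells and listed at 0 in processed cells. Whether the counting used strand is not stated, and whether FGF14 and FGF14-AS1 share reads was not tested. Within the summed homologous factors, FGF14 held 17.0% in live cells and 0.0214% in processed cells, and FGF13 held 27.7% and 42.8%.

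**Figure D3:**
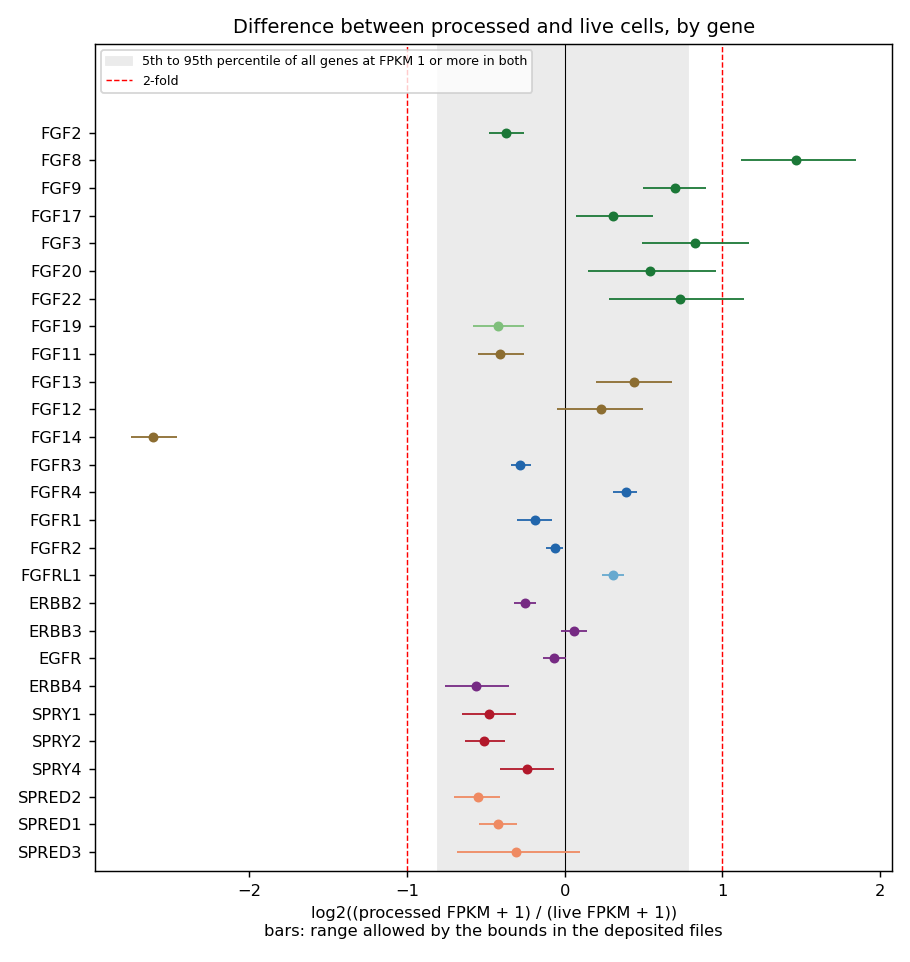
log2((processed FPKM + 1)/(live FPKM + 1)) of the 27 genes, coloured by role as in the plot of levels, with bars for the range the bounds allow. The grey band is the 5th to 95th percentile of all genes at FPKM 1 or more in both libraries (-0.80 to 0.78) and the dashed lines are 2-fold. FGF8 (1.47) lies outside the band. The band is no like comparison for FGF3, FGF20, FGF22, FGF14 and SPRED3, which reached 1 FPKM in one library alone. All 6 Sprouty and Spred genes lie on the left of 0, as did 10094 of all 17326 genes at FPKM 1 or more in one library.

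The FGF receptors were the most abundant genes of the set, each between the 93.7th and 97.5th percentile of protein-coding genes in both libraries. FGFR4, the receptor that pairs with FGF19 in the liver, was at 81.7 FPKM in live cells (bounds 79.7 to 83.7) and 107 FPKM in the processed library (104 to 110), 1.31-fold higher. FGFR3, a receptor best known as a brake on bone growth, was at 94.8 FPKM in live cells (92.8 to 96.9) and 78.2 FPKM in the processed library (76.2 to 80.2), a log2 ratio of -0.28. FGFR4 and FGFR3 thus exchanged rank, and FGFR4 stood at 0.862 times FGFR3 in the live and 1.37 times FGFR3 in the processed library.

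FGFR1 was at 68.7 FPKM in the live and 60.3 FPKM in the processed library, and FGFR2, the epithelial receptor of FGF10, at 55.1 and 52.6 FPKM. The log2 ratios of FGFR1 and FGFR2 were -0.19 and -0.06. When processed values were divided by the median ratio of all expressed genes (0.932, or -0.10 in log2), their bounds overlapped, and FGFR2 changed sign to 0.04. On that scale FGFR4 was one of 11 genes of the set that were higher with separate bounds (all genes, 34.8%). The order of levels was FGFR3, FGFR4, FGFR1, FGFR2 in live cells and FGFR4, FGFR3, FGFR1, FGFR2 in processed cells, and neighbours in each order had separate bounds. FGFRL1, a receptor-like protein that binds FGFs but lacks the kinase domain, was at 31.2 FPKM in the live and 38.8 FPKM in the processed library, 1.25-fold higher.

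The sum of FGFR1 to FGFR4 was 300 FPKM in the live and 298 FPKM in the processed library, so the family differed in make-up and hardly in total. FGFR4 held 27.2% of the sum in live cells (26.3% to 28.2%) and 36.0% in processed cells (34.6% to 37.3%). FGFR3 held 31.6% and 26.2%, FGFR1 22.9% and 20.2%, and FGFR2 18.3% and 17.6%. The share ranges of FGFR2 overlapped between the libraries, and those of the other 3 receptors did not.

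**Figure D4:**
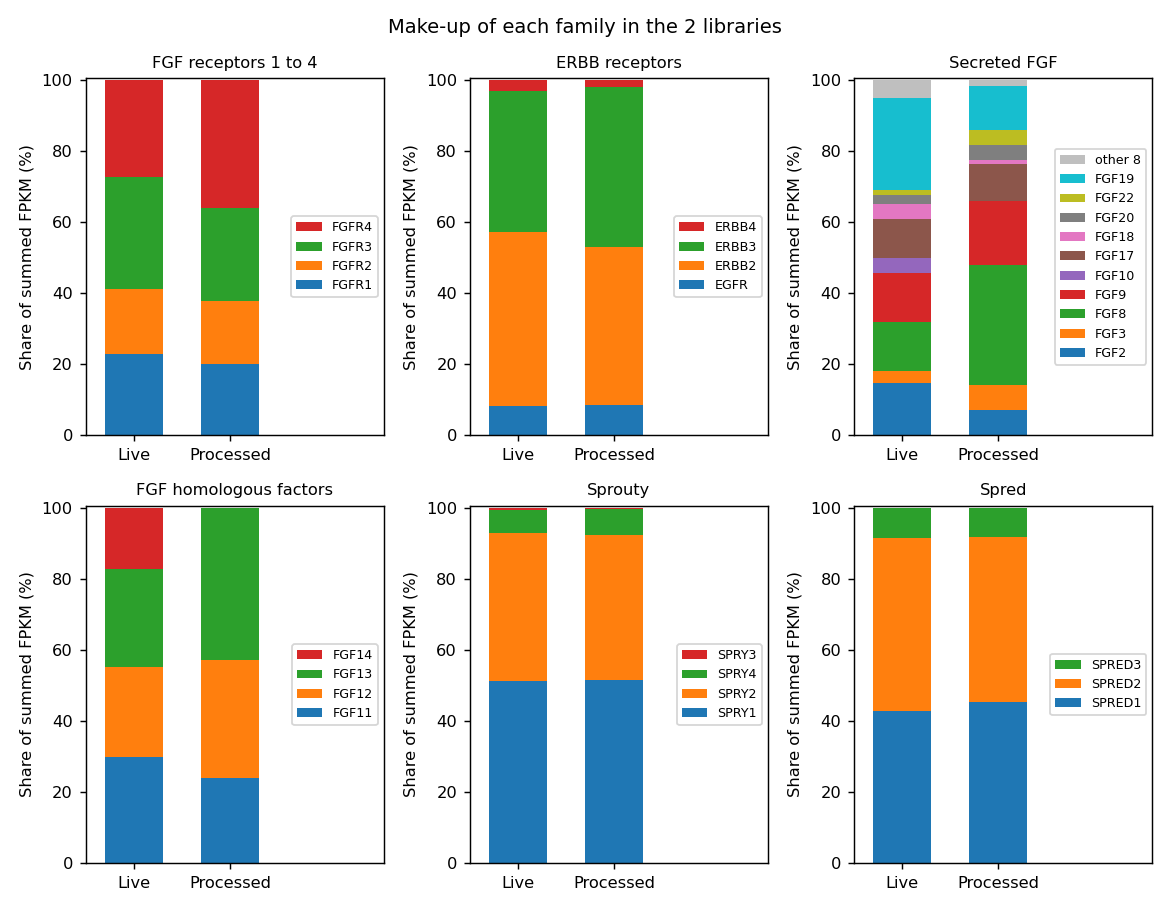
Share of each family's summed FPKM (%) held by each gene in live and processed cells, 1 panel per family, with bars adding to 100%. FGFR4 goes from 27.2% to 36.0%, FGF8 from 14% to 33.9% and FGF14 from 17.0% to 0.0214%, while SPRY1 holds 51.2% and 51.5% of the Sprouty sum.

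Of the ERBB receptors, ERBB2 and ERBB3 dominated. ERBB2, the co-receptor without a ligand of its own, was at 49.3 FPKM in the live and 41.4 FPKM in the processed library, a log2 ratio of -0.25. ERBB3, the neuregulin receptor with an impaired kinase, was at 40.1 and 42.0 FPKM with overlapping bounds. ERBB2 was therefore the higher of the pair in live cells, and in processed cells the bounds of ERBB2 and ERBB3 overlapped. EGFR was at 8.33 and 7.90 FPKM with overlapping bounds, a log2 ratio of -0.07. ERBB4, a neuregulin receptor found in heart, brain and islets, was at 2.96 FPKM in the live and 1.68 FPKM in the processed library, 1.76-fold lower. Of the summed ERBB level, ERBB2 held 49% in live and 44.5% in processed cells and ERBB3 39.8% and 45.2%. ERBB2 shares its ends with PGAP3 and MIEN1 on the opposite strand, which were at 14.7 and 20.7 FPKM in live and 17.3 and 15.9 FPKM in processed cells.

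The Sprouty and Spred inhibitors were lower in processed cells as a group. SPRY1 was at 18.6 FPKM in the live and 13.1 FPKM in the processed library, and SPRY2 at 15.2 and 10.4 FPKM, with log2 ratios of -0.48 and -0.51. SPRY4 was at 2.34 and 1.82 FPKM. These are inhibitors that ERK signalling itself induces and that act on the relay below the receptors. The Spred proteins, which bring neurofibromin to the membrane to switch off RAS, had the same direction. SPRED2 was at 7.70 FPKM in the live and 4.92 FPKM in the processed library, SPRED1 at 6.78 and 4.82 FPKM, and SPRED3 at 1.32 and 0.873 FPKM.

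All 6 expressed Sprouty and Spred genes had lower values in processed cells, as did 10094 of all 17326 genes and 8330 of 13573 protein-coding genes. SPRED3 reached 1 FPKM in live cells alone, so the filter fixed its direction. Of the 6, 5 were lower with separate bounds (all genes, 43.7%). Their median log2 ratio was -0.45, against -0.09 over all genes. After division by the median ratio it was -0.36 (range -0.47 to -0.17), and 4 of the 6 kept separate bounds (all genes lower, 35.7%), with SPRY4 joining SPRED3 among those that overlapped. Relative to the summed FGFR1 to FGFR4, the summed Sprouty and Spred level stood at 0.174 in the live and 0.121 in the processed library. The make-up of the group hardly differed: SPRY1 held 51.2% and 51.5% of the Sprouty sum, and SPRY2 41.8% and 41.0%.

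SPRY1 and SPRY2 differed by nearly the same ratio, and the bases upstream of their starts are shown here because they have little in common in composition. Both are the 250 bases before the annotated start, from RefSeq on GRCh38.p14, read 5′ to 3′ on the strand of the gene, at chr4:123396545-123396794 (plus strand) and chr13:80341127-80341376 (minus strand). Capitals mark GC boxes (GGGCGG, or CCGCCC on the other strand).
SPRY1: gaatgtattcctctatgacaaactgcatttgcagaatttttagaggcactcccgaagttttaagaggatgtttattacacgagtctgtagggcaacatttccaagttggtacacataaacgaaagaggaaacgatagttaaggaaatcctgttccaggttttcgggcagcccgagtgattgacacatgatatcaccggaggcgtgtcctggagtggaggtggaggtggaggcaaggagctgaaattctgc
SPRY2: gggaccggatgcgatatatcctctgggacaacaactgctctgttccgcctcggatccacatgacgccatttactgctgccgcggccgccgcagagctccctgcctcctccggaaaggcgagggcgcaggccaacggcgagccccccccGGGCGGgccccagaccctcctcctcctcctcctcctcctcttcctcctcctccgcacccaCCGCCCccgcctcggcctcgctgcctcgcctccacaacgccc
The SPRY1 window has a GC content of 45.6% and no GC box, and the SPRY2 window 70.4% and 2 GC boxes. A promoter entry was at hand for 29 of the 38 genes, and 17 of these held a GC box, as did 42.3% of all 27305 promoters of the same length. An ETS motif (CCGGAAG or CTTCCGG) was found in 8.82% of all promoters, in 1 of the 29, ERBB2, and in none of the 7 Sprouty and Spred windows. An AP-1 motif (TGACTCA or TGAGTCA) was found in 4.16% of all promoters and in 1 of the 29, SPRED3, and a TATA motif (TATAAA or TTTATA) in 11.1% of all and in 2 of the 29, FGF13 and FGF6. A match describes these letters in these windows and is not a bound site.

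The other genes of the same pathways were followed in 4 lists of 46 genes, of which 41 reached 1 FPKM in one library. None passed 2-fold on the higher side in processed cells, and 3 (EGF, FRS2 and SOS1) passed it on the lower side (all genes, 6.57% and 6.19%). Of the 13573 protein-coding genes under the same filter, 427 passed it on the higher side and 479 on the lower. By bounds, 7 of the 41 were higher, 23 lower and 11 overlapped (all genes, 28.1% higher and 43.7% lower). Their median log2 ratio was -0.19. After division by the median ratio, 13 were higher and 20 lower (all genes, 34.8% and 35.7%). Among the 9 expressed EGF family ligands, 2 were higher and 3 lower by bounds, and 4 higher and 2 lower after that division, so no direction is given for this list. EGF itself was at 1.57 FPKM in the live and 0.0339 FPKM in the processed library, NRG1, a neuregulin, at 6.75 and 4.58 FPKM, and NRG3 had overlapping bounds around a live level of 6.85 FPKM.

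Among the 11 expressed co-receptors, binding proteins and adaptors, 8 were lower and 1 higher by bounds, and 8 lower and 3 higher after that division. FRS2, the docking protein that FGF receptors phosphorylate, was at 18.0 FPKM in the live and 8.39 FPKM in the processed library, a log2 ratio of -1.02. SOS1, the exchange factor that loads RAS with GTP, was at 17.0 and 7.06 FPKM, a log2 ratio of -1.16. GRB2, the adaptor that joins receptors to SOS1, was at 35.7 and 22.7 FPKM. Other genes of the list at the same steps, named here after their values were seen, were not all lower in this way. GAB1, a docking protein, was at 7.62 and 12.0 FPKM, 1.57-fold higher with separate bounds, and FRS3 was at 3.35 and 3.86 FPKM with overlapping bounds. SOS2, at 12.8 and 10.6 FPKM, was also lower with separate bounds, by 1.2-fold. The sum over the list was 169 FPKM in the live and 123 FPKM in the processed library.

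All 10 genes of the RAS, RAF, MEK and ERK relay were expressed, 6 lower and 2 higher by bounds (6 and 3 after division by the median ratio), with sums of 320 FPKM in the live and 269 FPKM in the processed library. MAP2K2, which encodes MEK2, was at 59.4 and 63.0 FPKM and was higher by bounds. MAPK3, which encodes ERK1 and is named here after its values were seen, was at 22.0 and 24.2 FPKM with overlapping bounds. Among the 11 feedback genes and ETS targets, all expressed, 6 were lower and 2 higher by bounds (4 and 3 after division by the median ratio). EGR1, an immediate early gene induced by ERK, was at 64.5 and 60.8 FPKM, FOS, another, at 55.6 and 79.7 FPKM, and ERRFI1, a feedback inhibitor of EGFR, at 37.5 and 32.3 FPKM. As measured, EGR1 and ERRFI1 were lower in processed cells and FOS was higher, each with separate bounds. The part of ERK signalling in these differences was not tested.

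Across all genes, the differences were weakly related to the base composition of the transcripts, here the GC content of the longest annotated transcript. Across all genes at 1 FPKM or more in both libraries, the median log2 ratio was -0.19 in the tenth of genes with the lowest GC content (median 36.8% GC) and -0.01 in the tenth with the highest (64.1% GC). Over the 22 signalling genes of that kind, Spearman's rho between GC content and log2 ratio was 0.30, over the 38 other pathway genes 0.53 and over all 14259 genes 0.15. For transcript length the values were -0.04, -0.46 and -0.15. These describe genes within 1 pair of libraries, which share their depth, and length and GC content are themselves related. After the median of genes with like GC content was subtracted, FGF8 was at 1.48, FGF14 at -2.42 and FGFR4 at 0.40. The 6 Sprouty and Spred genes had a median of -0.32 with all 6 still under 0 (all genes, 8378 under and 8333 above 0). SPRED3, 1 of the 6, passed the filter through live cells alone. FGFR2 and EGFR changed sign. The part of GC content and length in these differences was not tested further.

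**Figure D5:**
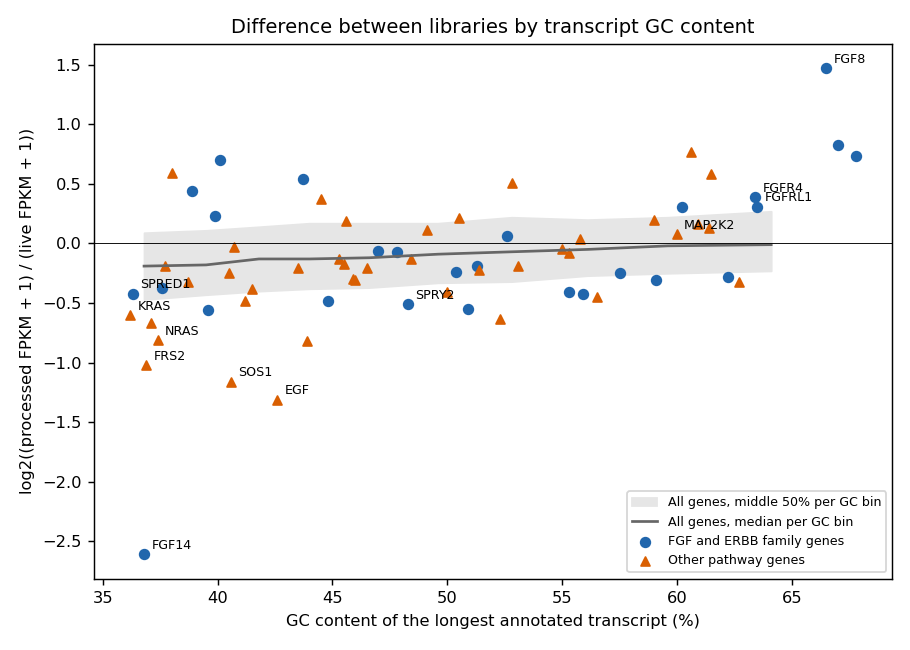
log2((processed FPKM + 1)/(live FPKM + 1)) against the GC content of the longest annotated transcript (%) for the FGF and ERBB family genes (blue circles) and the other pathway genes (orange triangles). The line and band are the median and middle 50% of all genes in 10 bins of GC content. FGF8 (1.47) lies far above the band at high GC content. FGF14 (-2.61), EGF (-1.31), FRS2 (-1.02) and SOS1 (-1.16) lie below it at low GC content.

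Some of the genes share their position with others, and 8 of the 38 overlapped a gene at 1 FPKM or more, FGF7, which stayed under that level itself, among them. FGF12-AS2, antisense to FGF12, was at 2.17 FPKM in the live and 0.00895 FPKM in the processed library, and FGF12-AS3 at 1.37 and 0.536 FPKM, while FGF12 itself had overlapping bounds. RP11-350N15.4, antisense to FGFR1, was at 2.18 and 1.07 FPKM. CHRNB1, which overlaps the end of FGF11 on the same strand, was at 7.89 FPKM in the live and 4.39 FPKM in the processed library, lower as FGF11 was. NUDT6, antisense to FGF2, was at 3.05 and 3.10 FPKM with overlapping bounds. RP11-603J24.9, at the end of ERBB3, was at 1.21 and 0.539 FPKM. The part of shared reads in the values of FGF2, FGF11, FGF12, FGFR1, ERBB2 and ERBB3 was not tested.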

How the data were processed

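RNA-seq libraries of live and processed cells were compared, 1 library each, from poly-A RNA read as pairs of 80 nt. The authors aligned the reads to GRCh37 with STAR 2.2.0c, guided by GENCODE 14, and deposited FPKM values per gene each with its bounds and a status, made with Cufflinks 2.0.2 per the labels (the methods name Cuffdiff). Read counts were not used here, and the level of the bounds is not given in the sources used here. FPKM are already scaled to each library, and fragment assignment among transcripts can move the value of a gene with many isoforms.

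Genes were joined by Ensembl identifier, since 5489 stood in the same row of both tables. Log2 ratios had 1 FPKM added, and counts used genes at 1 FPKM or more in one library. Calls were more than 2-fold, or bounds that did not overlap. Ranges of folds and shares set one bound against the opposite one. Fragments per kilobase were read from the steps of low FPKM over genes with 1 annotated transcript, with 170 nt taken off its length. Gene type, length and GC content came from GENCODE 44 mapped to GRCh37, which held 94.5% of the identifiers. Promoters came from RefSeq. File positions, which start from 0, were moved to start from 1. Python 3.11.15, numpy 2.4.6, pandas 2.3.3, scipy 1.17.1 and matplotlib 3.10.9 were used, and the ratio step was tested on simulated data.

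The genes, pathway lists and markers were chosen with earlier results of these data known. All genes of the set were named, and each pathway list was given at most 4 examples, those with the highest live FPKM and those past 2-fold, besides genes overlapping a named gene at 1 FPKM or more. Some examples that this rule picks are not reported here. PECAM1, a listed endothelial marker, was not analysed here. Alternatives were a pseudocount of 0.1, no filter, 10 FPKM, scaling by the median ratio or by equal sums, and centring by GC content or length.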

Additional observations from a re-analysis of the deposited data

How the results depend on the processing

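With 0.1 FPKM added in place of 1, 4 genes passed 2-fold on the higher side (all genes, 9.9%): FGF8, FGF3 (1.46), FGF22 (1.74) and FGF20 (1.11), of which the last 3 were under 1 FPKM in live cells. With a filter of 10 FPKM in one library, 10 of the genes remained, and 0 passed 2-fold on the higher side and 0 on the lower side. The median log2 ratio was -0.01 after centring by transcript length, against -0.19 as measured. That centring and the one by GC content were added after the data were seen. No gene past 2-fold reversed under any of these settings. Of the 27 genes, 21 stayed within the range that their bounds allow with 0.1 FPKM added, 20 with the median ratio, 27 with equal sums, 22 with GC centring and 16 with length centring. With the median ratio, 11 genes had separate bounds and were higher and 11 lower (all genes, 34.8% and 35.7%), where 9 and 14 were as measured. FGFR1, FGFR2 and SPRY4 lost separate bounds on the lower side, and ERBB3 and FGF12 gained them on the higher side. FGFR2 and EGFR changed sign with the median ratio and with both centrings. No paired analysis was possible because each condition has 1 library, and for the same reason no library could be left out. Low levels limit the secreted FGFs: 1 FPKM stands for 99.7 fragments per kilobase in live and 93.1 in processed cells. These kilobases are counted after 170 nt is taken off the transcript length, so a transcript of 1 kilobase rests on fewer.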

Other observations

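FGF13-AS1, which lies antisense within FGF13, was at 0.481 FPKM in live cells and listed at 0 in processed cells, while FGF13 was at 8.38 and 11.7 FPKM. RP11-104H15.7, on the same strand as FGF11 and overlapping it, was at 0.214 FPKM in the live and 0.775 FPKM in the processed library, where FGF11 was at 9.05 and 6.58 FPKM. Both were picked after their values were seen. KLB, the beta-klotho co-receptor through which FGF19 signals, was at 0.507 FPKM in the live and 0.175 FPKM in the processed library, and KL, the alpha-klotho co-receptor of FGF23, at 1.05 and 1.33 FPKM with overlapping bounds. ETV4, an ETS factor induced by FGF signalling, was at 2.50 FPKM in the live and 4.95 FPKM in the processed library. Its relative ETV1 was at 5.11 and 2.85 FPKM, so ETV4 and ETV1 lay in opposite directions with separate bounds. ETV5, of the same list, was at 3.04 and 2.70 FPKM with overlapping bounds. These genes too were picked after their values were seen.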
